A study of Mus musculus with 9 samples.

Results

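The neuronal nicotinic acetylcholine receptor subunits were followed across the cholinergic neurons of the adult mouse spinal cord. The list held 9 genes, the alpha subunits Chrna2, Chrna3, Chrna4, Chrna5, Chrna6 and Chrna7 and the beta subunits Chrnb2, Chrnb3 and Chrnb4, and its members were taken by name from the rows of the table of cholinergic nuclei. That table has 21457 features. Of the 9 listed genes 8 were rows of it, and Chrna2 was not one of them and is not analysed here.

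Nicotinic receptors are pentamers that open a cation channel when acetylcholine binds. Alpha7, the product of Chrna7, forms receptors by itself that pass much calcium, whereas alpha4 with beta2 is the common heteromer of the brain and alpha3 with beta4 that of autonomic ganglia. Alpha5 and beta3 join other subunits without forming the agonist site between them. In the spinal cord cholinergic interneurons and collaterals of motor neuron axons release acetylcholine onto motor neurons and Renshaw cells, so that a cholinergic neuron can be both a source and a target of the transmitter.

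Nuclei came from mice of 8 weeks that carried one copy each of Chat-IRES-Cre and of a Cre-dependent Sun1-sfGFP reporter, so that a nucleus was green if its cell had made Cre at any time. Spinal cords of 12 mice were pooled by 4 and cut into cervical, thoracic and lumbar/sacral tissue, and the 3 pools (2 males with 2 females, 4 males, 4 females) gave 9 libraries of sorted nuclei, sequenced by the 10x 3' method. No treatment was given, and all libraries share the genotype. Each sex on its own is 1 pool, and libraries with the same replicate number hold the same mice.

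The 16042 nuclei that the authors called cholinergic fell into their 3 classes, skeletal motor neurons (MNs, 5054 nuclei, clusters S1 to S3), visceral MNs (5613, V1 to V10) and interneurons (5375, I1 to I8), out of 34231 labelled nuclei. The class labels went with their markers. The authors took Tns1 from these nuclei and named clusters by Zeb2 and Pax2, so this describes the labels and is no separate check. Tns1 averaged 381 CPM (corrected counts scaled to a common total per group of nuclei, the usual CPM scale) in skeletal MNs against at most 31.3 in the other 2 classes, Zeb2 387 in visceral MNs against at most 12.6, and Pax2 211 in interneurons against at most 7.03. The 3 interneuron clusters with the least Chat, the gene of the acetylcholine-making enzyme, were I7 (31.2 ± 30.9 CPM, SD, n = 6 libraries), I2 (53.0 ± 16.6, n = 9) and I8 (97.9 ± 37.2, n = 8), where the other 18 clusters averaged 121 to 377. Slc5a7, another cholinergic marker, set the same 3 clusters further apart, at 10.0 CPM in I8, 17.8 in I7 and 37.4 in I2. In the other 18 clusters it averaged 147 (I1) to 473 (V10). I8 also had little Pax2 (9.55 ± 7.79 CPM) and much Mpped2 (766 ± 171). These 3 clusters matter below, because Chrna3 or Chrna4 was highest in them.

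Libraries held 747 to 2825 nuclei with a median of 4712 to 16127 corrected counts a nucleus. The library labelled cervical of the male pool had 73.3 CPM of Hoxc5 and 5 nuclei of V5, like the thoracic libraries of the other pools (84.2 and 85.3 CPM, 1 and 15 nuclei), and the one labelled thoracic of the male pool had 13.9 CPM and 116 nuclei, nearer to the other cervical libraries (22.5 and 25.4 CPM, 77 and 198 nuclei). Comparisons of cervical with thoracic tissue are therefore given with and without these 2 libraries, and Hoxd11 at 23.0 to 31.0 CPM in lumbar/sacral libraries and 0 in all others fitted the labels. Malat1, a nuclear RNA, took 3.03 to 3.40% of corrected counts in the 3 libraries of the pool of both sexes and the cervical library of the female pool, and 8.30 to 12.4% in the other 5. Markers of inhibitory neurons summed to 315 CPM on average in interneurons and 28.5 in skeletal MNs, and over classes and libraries the astrocyte list summed to 1.34 to 7.59 CPM, the oligodendrocyte list to 36.5 to 92.5 and the microglial list to 4.52 to 118.

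The 8 subunits differed widely in how often they were seen. Chrna7 had a corrected count in 3628 nuclei and as many as 21 in a single nucleus. Chrnb2 followed with 759 nuclei, Chrna3 with 329, Chrna4 with 218 and Chrnb4 with 139, and no nucleus held more than 4 counts of any of these. Chrna6 was seen in 35 nuclei, Chrna5 in 26 and Chrnb3 in 1.

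Chrna7 spans 114 kb on mouse chromosome 7 (chr7:63098692-63212569, minus strand, GRCm38 with the GENCODE M21 annotation), and counting included introns, so levels of different genes were set side by side per kb of gene. In interneurons Chrna7 came to 1.14 ± 0.196 CPM per kb, Chrna3 to 0.569 ± 0.120, Chrnb2 to 0.340 ± 0.113, Chrnb4 to 0.147 ± 0.0697 and Chrna4 to 0.102 ± 0.0283 (SD, n = 9). In skeletal MNs the order per kb was another one, with Chrnb2 at 0.378 ± 0.157 CPM per kb above Chrna7 at 0.149 ± 0.0352, and in visceral MNs Chrnb2 stood at 0.339 ± 0.118 and Chrna7 at 0.190 ± 0.0663. This order rests on the division by length. In CPM Chrna7 was above Chrnb2, at 16.9 and 6.96 in skeletal MNs and 21.6 and 6.25 in visceral MNs. Whether counts of the 3' method rise with gene length was not tested. The highest of the other members in either class of MN was Chrna4 in visceral MNs, at 0.0661 CPM per kb.

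Chrna3, Chrnb4 and Chrna5 are neighbours on chromosome 9. Chrna3 lies at chr9:55010111-55026562 and Chrnb4 at chr9:55028154-55048779, both on the minus strand with 1591 bases between them, and Chrna5 lies at chr9:54980880-55007779 on the plus strand, 2331 bases from the end of Chrna3. The bases just before the starts of the 2 genes that set interneurons apart are shown because the levels below turn on these genes. The Chrna3 window is chr9:55026563-55026812, within the gap to Chrnb4, and the Chrna7 window is chr7:63212570-63212776. Both are written 5′ to 3′ on the minus strand from RefSeq, build GRCm38.p6, with the letters GGGCGG (or CCGCCC, the same on the other strand) in capitals.
Chrna3: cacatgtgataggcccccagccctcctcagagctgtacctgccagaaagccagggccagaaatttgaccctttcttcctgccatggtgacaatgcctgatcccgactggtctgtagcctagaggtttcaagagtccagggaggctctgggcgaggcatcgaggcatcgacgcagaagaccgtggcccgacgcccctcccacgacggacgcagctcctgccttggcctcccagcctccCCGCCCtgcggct
Chrna7: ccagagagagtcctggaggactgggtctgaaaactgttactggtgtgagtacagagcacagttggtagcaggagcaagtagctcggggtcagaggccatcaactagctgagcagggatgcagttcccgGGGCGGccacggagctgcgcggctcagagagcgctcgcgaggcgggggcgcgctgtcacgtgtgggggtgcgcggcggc

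Both windows held GGGCGG, the GC box, once, and 32.7% of 32851 RefSeq windows of the 250 bases before a start held it on either strand. Both held CANNTG, an E box, in 2 matches, and 66.2% of all windows held it. The 2 matches overlap within CACATGTG in the Chrna3 window and lie apart in the Chrna7 window. These letters are common, and no site or factor was measured. The Chrna7 window had 207 bases, fewer than the 250 of the windows counted.

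Chrna7, the alpha7 gene, was higher in interneurons than in either class of MN. It ranged over the 9 libraries from 101.9 to 170.3 CPM in interneurons (median 123.6), from 12.5 to 36.3 in visceral MNs (median 18.4) and from 11.8 to 23.1 in skeletal MNs (median 17.0). The lowest interneuron library stood above the highest of either MN class, and the means were 129.6 ± 22.3, 21.6 ± 7.55 and 16.9 ± 4.01 CPM (SD, n = 9), so that interneurons held 7.65 times the level of skeletal MNs. On the log2(CPM + 5) scale the difference from skeletal MNs was 2.62 (SE 0.11, limma, adjusted p = 9.04e-15) and lay between 2.28 and 2.94 in all 9 libraries. Visceral MNs were lower than interneurons by a log2 difference of -2.37 (SE 0.11, limma, adjusted p = 7.20e-14).

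Only Chrna7 and Chrnb2 passed the filter on low values (at least 10 CPM in at least 3 sums) in these class comparisons, and 6 members did not. Of those 2 members, Chrna7 was called (adjusted p under 0.05 and at least 1 on the log2 scale) between interneurons and skeletal MNs, where 10.7% of all genes tested were called, and between visceral MNs and interneurons, where 7.75% were. Neither was called between visceral and skeletal MNs, where 11.8% of genes were. There Chrna7 was higher in visceral MNs by 0.25 (SE 0.11, limma, adjusted p = 0.0438), in 7 of 9 libraries and under the fold asked for. The classes were drawn by the authors from these same nuclei, so these tests describe their labels.

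Chrna7 also moved with the kind of library. In the 5 libraries with over 5% Malat1 it averaged 114 ± 9.11 CPM in interneurons and 14.04 ± 2.27 in skeletal MNs, and in the 4 with less it averaged 149 ± 16.6 and 20.5 ± 2.18. The ranges of the 2 sets of libraries did not overlap in either class, but they did in visceral MNs (12.5 to 25.3 and 15.0 to 36.3 CPM). The 4 microglial markers split by the same sets, summing to 41.1 to 118 CPM in skeletal MNs and 31.3 to 99.1 in interneurons of the 5 libraries, and to 7.13 to 11.7 and 5.83 to 12.8 in those of the 4. Within each set interneurons lay above skeletal MNs in every library, and the part of RNA quality or of microglial RNA in the level was not tested.

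Chrna3, which makes the agonist-binding subunit of the ganglionic receptor, was found mostly in interneurons. It ranged from 6.80 to 13.4 CPM in interneurons (median 9.24), from 0 to 1.06 in skeletal MNs (median 0.39) and from 0 to 0.33 in visceral MNs (median 0.27). No library overlapped between interneurons and either class of MN. The means were 9.36 ± 1.97, 0.40 ± 0.32 and 0.20 ± 0.13 CPM (SD, n = 9), which is 23.3 times the level of skeletal MNs. Chrna3 stayed under the filter on low values, and without the filter it was higher in interneurons than in skeletal MNs by 1.40 (SE 0.057, limma on log2(CPM + 5), adjusted p = 1.24e-13), a difference that the pseudocount makes smaller than the ratio of the levels.

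A count of Chrna3 was found in 306 of 5375 interneuron nuclei (5.69%, 95% Wilson interval 5.10 to 6.34%), in 13 of 5054 skeletal MN nuclei (0.257%, 0.150 to 0.440%) and in 10 of 5613 visceral MN nuclei (0.178%, 0.0968 to 0.328%). Nuclei without the gene had a median of 3143 genes detected in visceral MNs and of 2738 in interneurons. Such intervals cover counting error only.

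Chrnb4, the usual partner of alpha3, was likewise highest in interneurons at 3.03 ± 1.44 CPM, against 0.67 ± 0.64 in skeletal and 0.14 ± 0.33 in visceral MNs. Interneurons exceeded both classes in every one of the 9 libraries when taken library by library, but the ranges of interneurons (1.05 to 5.34) and skeletal MNs (0 to 1.58) overlapped. Without the filter on low values the difference from skeletal MNs was 0.49 (limma, adjusted p = 1.85e-06), under the fold asked for.

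Chrnb2, which makes the beta subunit of most brain receptors, was alike in level in all classes at 6.26 ± 2.09 CPM in interneurons, 6.25 ± 2.18 in visceral MNs and 6.96 ± 2.90 in skeletal MNs. The log2 differences were -0.07 (SE 0.08, limma, adjusted p = 0.411) between interneurons and skeletal MNs, -0.08 (SE 0.08, limma, adjusted p = 0.387) between visceral and skeletal MNs and -0.0012 (SE 0.08, limma, adjusted p = 0.991) between visceral MNs and interneurons. Chrna4, its alpha partner, was scarce, with 2.58 ± 0.71 CPM in interneurons, 1.66 ± 0.82 in visceral and 0.99 ± 0.55 in skeletal MNs. Its ranges overlapped, and within a library interneurons were above skeletal MNs in 9 of 9 and above visceral MNs in 8 of 9. Without the filter the difference from skeletal MNs was 0.34 on the log2(CPM + 5) scale (limma, adjusted p = 2.88e-05), and visceral MNs differed from interneurons by -0.19 (limma, adjusted p = 0.00857), both under the fold asked for. Chrna6 stood at 0.29 to 0.33 CPM in each class, and Chrna5 at 0.42 ± 0.40 CPM in skeletal MNs against 0.14 ± 0.14 in interneurons and 0.03 ± 0.05 in visceral MNs.

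**Figure D1:**
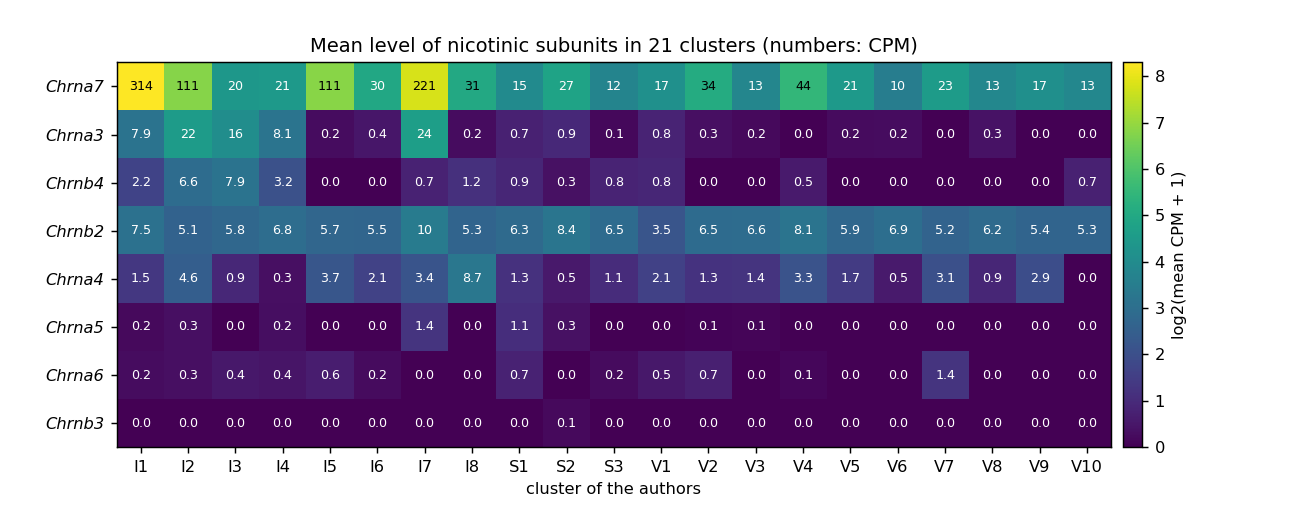
Mean level of the 8 subunits (rows) in the 21 clusters (columns), as CPM averaged over libraries with at least 10 nuclei of the cluster; the colour is log2(mean CPM + 1) and the printed numbers are CPM. Chrna7 runs from 10.4 in V6 to 314 in I1, Chrna3 reaches 24.2 in I7 and is under 1 in 16 clusters, and Chrnb2 lies between 3.54 and 9.99 in all of them.

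Within the interneurons Chrna7 was far from even. Its mean was 314 ± 68.2 CPM in I1 (n = 9 libraries), 221 ± 64.6 in I7 (n = 6), 111 ± 24.7 in I5 and 111 ± 39.9 in I2 (n = 9 each), and then fell to 31.4 ± 11.2 in I8, 30.3 ± 16.2 in I6, 21.5 ± 8.91 in I4 and 20.1 ± 10.3 in I3. All libraries of I1 stood between 223 and 433 CPM, above every library of any cluster but I7. Going down the order of the 21 clusters, the only steps between neighbours that exceeded the larger SD of the pair were I1 to I7, I7 to I5 and I2 to V4.

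The MN clusters overlapped the lower interneuron clusters. V4 at 44.0 ± 24.2 CPM and V2 at 33.5 ± 23.8 led the visceral MNs, the other visceral clusters averaged 10.4 (V6) to 22.6 (V7), and S2 at 27.1 ± 11.8 led the skeletal ones. Chrna7 was the member that all 21 clusters held at 10 CPM or more.

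**Figure D2:**
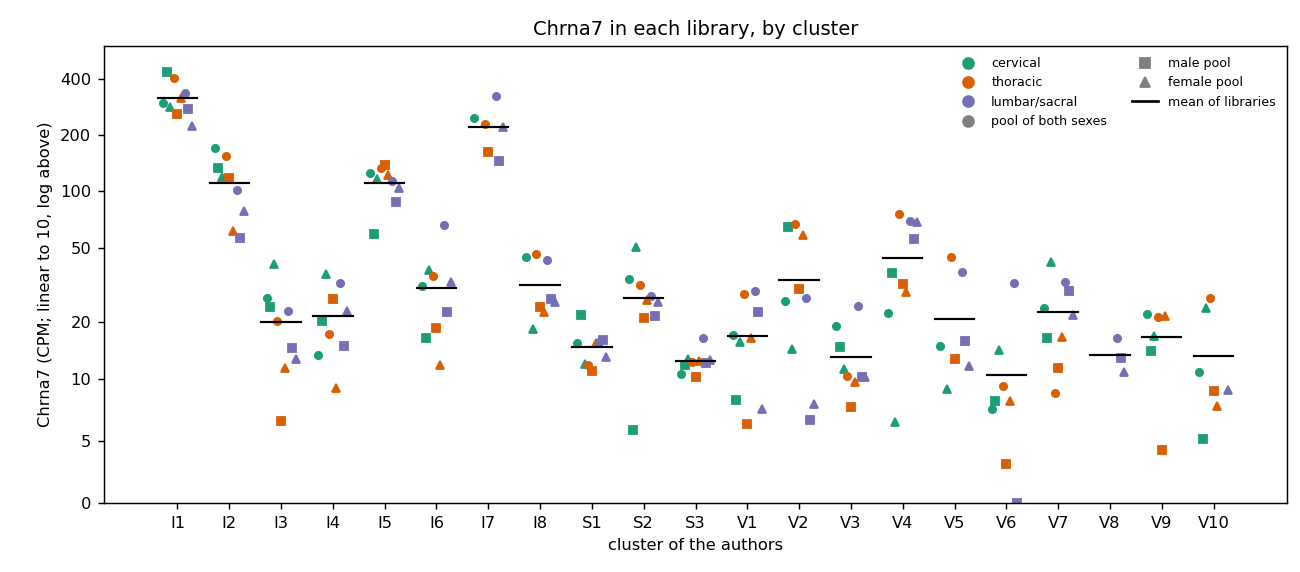
Chrna7 in each library (points, coloured by region, shaped by pool) and its mean (line) in the 21 clusters; the CPM axis is linear up to 10 and logarithmic above. The 9 points of I1 lie between 223 and 433 CPM, those of V2 spread from 6.68 to 67.0 and those of V4 from 6.55 to 75.4.

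The plot of Chrna7 by library shows that V4 and V2 had the widest spread in CPM of the visceral clusters, with SDs of 24.2 and 23.8. Relative to its mean V6 (10.4 ± 9.84 CPM) spread more than either, and V8 (13.4 ± 2.86) was narrow. A count of Chrna7 was found in 1095 of 1520 I1 nuclei (72.0%), 112 of 160 I7 nuclei (70.0%), 309 of 584 I5 nuclei (52.9%) and 371 of 780 I2 nuclei (47.6%). The median I1 nucleus held 1 corrected count, and 12.9% of I1 nuclei held 5 or more. Among MNs the share was 29.6% in V4, 28.4% in V2 and 19.4% in S2, and at its lowest 6.42% in V8. In nuclei thinned to 4600 corrected counts it was 62.0% in I1, 58.2% in I7, 37.3% in I5 and 35.0% in I2, and among MNs 15.7% in V4, 15.3% in V2, 12.4% in S2 and 6.13% in V8. Nuclei with a count also had more genes detected, a median of 2923 against 2641.5 in interneurons and 3663 against 3075 in visceral MNs.

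Chrna3 was held by 5 interneuron clusters. It averaged 24.2 ± 14.8 CPM in I7 (n = 6), 22.5 ± 6.87 in I2, 15.8 ± 8.99 in I3, 8.06 ± 4.54 in I4 and 7.95 ± 2.81 in I1 (n = 9 each). These 5 came first in the order, and no step between neighbours among them exceeded the larger SD of the pair, though I2 stood above I4 and I1 by more than that. The step down from I1 to the next cluster, S2 at 0.94 ± 1.54 CPM, also exceeded it. The other 3 interneuron clusters held 0.43 CPM or less, and in V4, V7, V9 and V10 no count was found. In V4 that is 0 of 662 nuclei, which allows a share of up to 0.453%.

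Put by nuclei, 303 of the 329 with a Chrna3 count (92.1%) were in I1 to I4 and I7, which make up 24.4% of all nuclei, and 3 were in I5, I6 and I8. I5 is of interest beside I1, for it was a high Chrna7 cluster with almost no Chrna3, at 0.21 CPM and 1 of 584 nuclei. The inhibitory list (Gad1, Gad2, Slc32a1, Slc6a5) summed to 290 to 461 CPM on average in I1 to I4. In I7 it averaged at least 149 CPM and was at most 245 in any library. The other 3 clusters lay on both sides of these 5, at 23.2 in I5, 20.2 in I6 and at least 817 in I8. The I7 and I8 averages are lower bounds, because libraries with too few nuclei for a sum were counted as 0. Chat was low in I7 and I2, where Chrna3 was highest, as given above.

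Chrnb4 kept to nearly the same clusters. It averaged 7.93 ± 3.83 CPM in I3, 6.59 ± 6.99 in I2, 3.20 ± 2.50 in I4 and 2.20 ± 1.67 in I1, and 108 of its 139 nuclei (77.7%) were in I1 to I4 and I7. I7 is the exception between the partners, with the highest mean of Chrna3 and a Chrnb4 count in 1 of 160 nuclei (0.625%, 95% Wilson interval 0.110 to 3.45%). In I5 and I6 no count of Chrnb4 was found, in 0 of 584 and 0 of 544 nuclei, which allows shares of up to 0.514% and 0.551%. The mean in I2 rests in part on the thoracic library of the female pool, at 22.1 CPM where the other 8 libraries had 0 to 11.95.

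**Figure D3:**
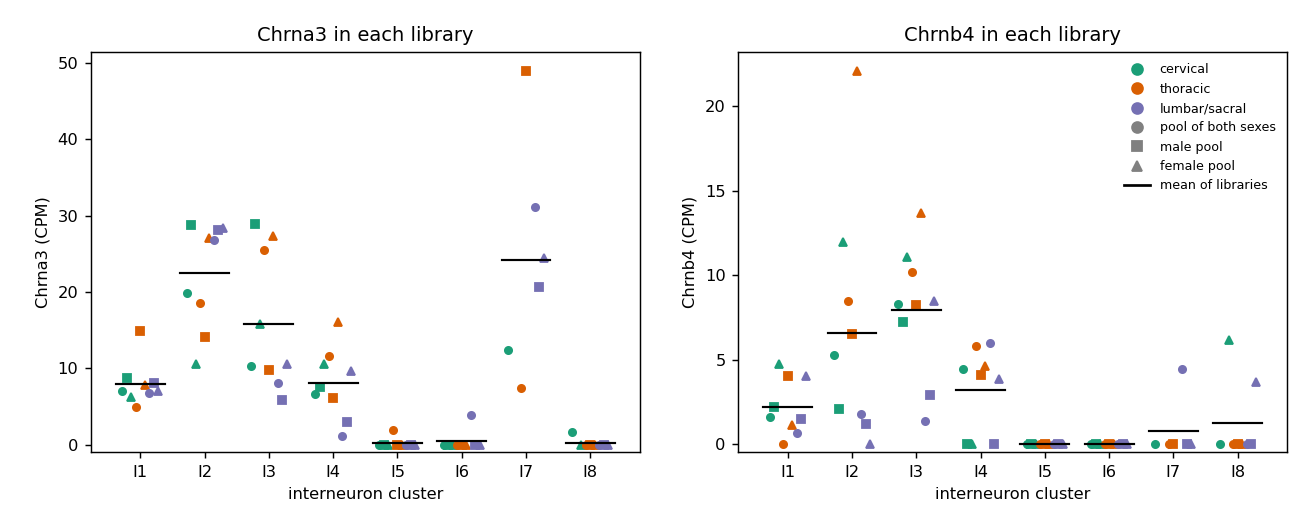
Chrna3 (left) and Chrnb4 (right) in each library of the 8 interneuron clusters, in CPM on linear axes of different length, with the mean of libraries as a line. Chrna3 is above 0 in all libraries of I1, I2, I3, I4 and I7 and at 0 in nearly all of I5, I6 and I8, and Chrnb4 is at 0 in every library of I5 and I6.

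In the plot of Chrna3 the points of the 5 clusters that hold the gene overlap between neighbours in the order, and those of I5, I6 and I8 lie at or near 0. Across the 21 clusters Pearson's r of the mean log2 levels was 0.78 for Chrna3 with Chrnb4, 0.61 for Chrna3 with Chrna7 and 0.24 for Chrna7 with Chrnb4. These describe 21 clusters that share their libraries.

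Chrna4, the alpha subunit of the common brain receptor, was highest in I8 with 8.70 ± 4.91 CPM (n = 8) and a count in 21 of 329 nuclei (6.38%), followed by I2 with 4.64 ± 2.41. No step between neighbours in its order exceeded the SD. Chrnb2 likewise had no such step, from 9.99 ± 8.78 CPM in I7 down to 3.54 ± 2.12 in V1. The accessory subunit Chrna5 was found in S1, the authors' Type 3 skeletal MNs, in 14 of its 26 nuclei (53.8%), a cluster that holds 9.52% of all nuclei, and those 14 were 0.916% of S1. With 26 nuclei in all, this gives where Chrna5 was seen and is not read as a difference between clusters.

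The skeletal clusters differ in kind of MN, as the authors' labels give S2 as alpha, S3 as gamma and S1 as Type 3. Alpha MNs drive the force-bearing fibres of muscle and gamma MNs those inside the muscle spindle. Sv2b, a marker of alpha MNs, averaged 310 CPM in S2 against 14.9 in S1 and 7.98 in S3. Nrp2, a gamma marker, averaged 442 in S3, and Gpr149, a Type 3 marker, 420 in S1. The authors drew these markers from these same nuclei, so they describe the labels and do not check them. Rbfox3, an alpha marker from earlier studies by which the authors named S2, averaged 229 CPM in S2, 64.3 in S3 and 35.8 in S1. Other gamma markers were less exclusive, for Esrrg stood at 1931 CPM in S1 beside 2056 in S3, and Gfra1 at 488 in S2 beside 742 in S3.

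Chrna7 ranged over the 9 libraries from 5.89 to 50.2 CPM in S2 (median 26.4), from 10.9 to 21.8 in S1 (median 15.6) and from 10.2 to 16.5 in S3 (median 12.3). The lowest S2 value was that of the library labelled cervical of the male pool, which lay under its S1 and S3 values, and in the other 8 libraries S2 was above both. S2 exceeded S3 by 0.78 (SE 0.19, limma, adjusted p = 0.00243) and S1 lay below S2 by -0.61 (SE 0.19, limma, adjusted p = 0.0201), both under the fold asked for. S1 and S3 did not differ beyond their spread (0.17, SE 0.19, limma, adjusted p = 0.681).

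None of the 2 members tested was called between skeletal types, where 5.23% of genes were called between S1 and S2, 5.33% between S1 and S3 and 8.12% between S2 and S3. At an unadjusted p under 0.05 stood 3912, 3151 and 4433 of 11465 genes. Chrnb2 was 0.23 higher in S2 than in S3 on the log2(CPM + 5) scale (SE 0.14, limma, adjusted p = 0.249), and no type differed from another in it beyond the spread.

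Region was compared within classes as lumbar/sacral tissue against the mean of cervical and thoracic tissue (rostral) and as cervical against thoracic tissue, with 3 libraries a region. No member was called in any of the 6 comparisons (limma, adjusted p under 0.05), where lumbar/sacral against rostral tissue called 0.01% of genes for skeletal MNs, 4.27% for visceral MNs and 0.051% for interneurons, and cervical against thoracic tissue 0% for each class. At an unadjusted p under 0.05 stood 402, 1336 and 331 genes in the first kind and 607, 160 and 189 in the second.

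Lumbar/sacral Chrna7 differed from rostral by -0.01 in skeletal MNs (SE 0.20, limma, adjusted p = 0.995), by 0.06 in visceral MNs (limma, adjusted p = 0.976) and by -0.15 in interneurons (limma, adjusted p = 0.9997). Cervical Chrna7 differed from thoracic by 0.20 in skeletal MNs (limma, adjusted p = 0.769), by -0.28 in visceral MNs (limma, adjusted p = 0.945) and by -0.02 in interneurons (limma, adjusted p = 0.986). Without the male pool's cervical and thoracic libraries, which went against their labels, these values were 0.31, -0.76 and -0.04 (limma, adjusted p = 0.784, 0.723 and 0.956).

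Within 13 clusters that had at least 20 nuclei in every library, members passed the filter in 19 tests of lumbar/sacral against rostral tissue, and again none was called. Of the 19, 4 had an unadjusted p under 0.05, and 3 of these were Chrna7 (in V2, V4 and I2). No share of all genes at that unadjusted p over the 13 clusters was set beside these 4, so no excess is read from them. Of all genes tested 3.07% were called in V2, 2.74% in V4, 1.55% in V3, 0.845% in I6, 0.511% in I2, 0.0783% in V7, 0.0711% in S3, 0.0408% in I4 and 0% in I1, I3, S1, S2 and V1. Among the members that passed the filter the largest differences were those of Chrna7 in V2 and V4.

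In V2 Chrna7 was lower in lumbar/sacral tissue. Its CPM were 26.0, 64.4 and 14.4 in the cervical libraries, 67.0, 30.1 and 58.2 in the thoracic and 26.8, 6.68 and 8.00 in the lumbar/sacral ones, in the order of the pools of both sexes, males and females. The lumbar/sacral library of the pool of both sexes overlapped the rostral ones, and in each pool it was lower than the rostral mean. The difference was -1.36 (SE 0.45, limma, adjusted p = 0.187). The male pool's 64.4 and 30.1 CPM came from the libraries that went against their labels. With those exchanged, cervical values would read 26.0, 30.1 and 14.4 CPM and thoracic ones 67.0, 64.4 and 58.2. The rostral mean of each pool stays the same, and no fit was run with the exchange.

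In V4 Chrna7 was higher in lumbar/sacral tissue. Its CPM were 22.4, 36.7 and 6.55 in the cervical libraries, 75.4, 31.8 and 29.0 in the thoracic and 69.3, 55.9 and 68.6 in the lumbar/sacral ones. Only the thoracic library of the pool of both sexes stood above the lumbar/sacral range. The difference was 1.06 (SE 0.39, limma, adjusted p = 0.265). These sums rest on 21 to 197 nuclei of V2 and 30 to 145 of V4 a library.

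**Figure D4:**
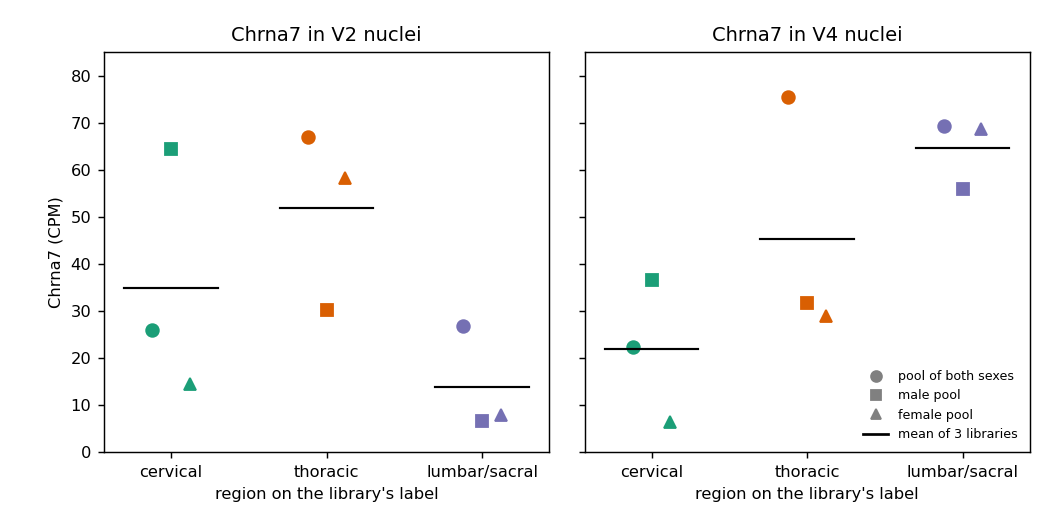
Chrna7 in V2 and V4 in each library, in CPM, by region label; the marker is the pool and the bar the mean of 3 libraries. Lumbar/sacral points lie at 6.68 to 26.8 in V2 and at 55.9 to 69.3 in V4.

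The plot of V2 and V4 shows that, by label, cervical and thoracic libraries spread as widely as the regions stood apart. In V2 the male pool's cervical and thoracic libraries, which went against their labels, are part of this spread. In I2 the lumbar/sacral difference of Chrna7 was -0.62 (SE 0.27, limma, adjusted p = 0.742), and in I3 that of Chrna3 was -0.84 (SE 0.36, limma, adjusted p = 0.999). In I2 and I3 599 and 183 genes stood at an unadjusted p under 0.05.

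Sex was not tested, since each sex alone was 1 pool. The mean of 3 libraries of Chrna7 in interneurons was 117.1 CPM in the male and 116.9 in the female pool, and 154.8 in the pool of both. Chrnb2 in skeletal MNs was 5.11, 6.29 and 6.69 CPM in the male libraries (cervical, thoracic, lumbar/sacral) and 3.76, 11.6 and 12.1 in the female ones.

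Receptors need their subunits in the same cell, so the members were also counted together. Of all nuclei 71.0% had no member, 26.2% had 1 and 2.68% had 2, while 22 nuclei had 3 and 1 had 4. At least 1 member was seen in most I7 and I1 nuclei, where 23.1% and 25.6% had none, against 82.6% of skeletal and 79.5% of visceral MN nuclei. These shares depend on depth, and a nucleus without a count may still have the RNA.

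**Figure D5:**
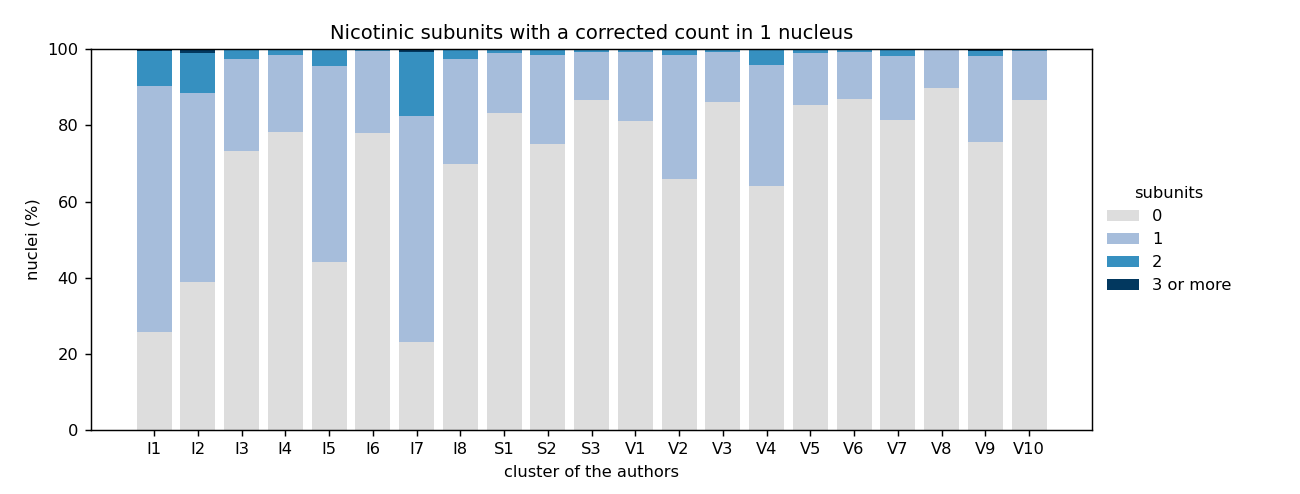
Percent of nuclei (bars stacked to 100) with a corrected count of 0, 1, 2 or at least 3 of the 8 subunits in each cluster. The part with none is 23.1% in I7, 25.6% in I1 and 39.0% in I2, and 89.9% in V8; the part with 2 is 16.9% in I7.

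The stacked bars are set mostly by Chrna7. Of its 3628 nuclei, 3203 (88.3%) had no other member and 425 (11.7%) had one. The share with another member was 25.0% in I7 and 21.8% in I2.

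Counts of nuclei with both members of a pair were set beside the product of their shares, summed over libraries and clusters, as a description. Chrna3 and Chrnb4, the ganglionic pair, were seen together in 15 nuclei where the product gave 12.1, and 14 of the 15 were interneurons. By cluster there were 6 such nuclei in I2 (product 5.08), 3 in I1 (1.34) and 3 in I3 (4.50).

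Chrna3 and Chrna7 were seen together in 143 interneuron nuclei, with a product of 138.6, so that 46.7% of the interneurons with Chrna3 also had Chrna7. In I1 the number was 63 with a product of 53.1, above it in 8 of 9 libraries, and in I2 it was 49 with 51.9. Nuclei with either gene also had more genes detected, as given above for Chrna7, and depth within a cluster was not part of the product. Chrna7 with Chrnb2 came to 96 interneuron nuclei (product 102), and Chrna4 with Chrnb2, the brain pair, to 9 of all nuclei (product 9.85).

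Genes that act on nicotinic receptors were followed by list. Of 8 Ly6 family modulators, small proteins that bind the receptors at the membrane, 7 were in the table and 5 passed the filter in the class comparisons. Between interneurons and skeletal MNs 1 was higher, Ly6h by 2.58 (SE 0.12, limma, adjusted p = 6.64e-14), and 1 lower, Lypd6 by -1.16 (SE 0.15, limma, adjusted p = 1.02e-06). Of all genes tested 10.7% were called there. The median over the 5 was -0.29, where it was -0.02 over all genes. Between visceral and skeletal MNs, where 11.8% of all genes were called, Ly6h was higher by 2.43 and Lypd6b lower by -1.57 (limma, adjusted p = 1.41e-13 and 3.23e-10). Lypd6b was also lower in visceral MNs than in interneurons, by -1.10 (limma, adjusted p = 1.66e-07), where 7.75% of all genes were called.

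Lypd6 set the skeletal types apart. It averaged 174 CPM in S2, 36.7 in S1 and 6.22 in S3, and S2 exceeded S3 by 3.98 (SE 0.16, limma, adjusted p = 4.71e-16). S1 was below S2 by -2.15 and above S3 by 1.83 (limma, adjusted p = 1.36e-10 and 1.35e-09). Lypd6b was lower in S1 than in S2 by -1.32 and than in S3 by -1.15 (limma, adjusted p = 5.15e-09 and 3.44e-08). S2 thus had the highest mean of both Lypd6 and Chrna7.

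Lypd6 also differed by region in V2 and V4, the clusters with the largest regional differences of Chrna7. In V2 it was 116, 102 and 96.0 CPM in the lumbar/sacral libraries and 0 to 22.8 in the 6 rostral ones, a difference of 2.97 (SE 0.46, limma, adjusted p = 0.00323). In V4 it was 0, 2.66 and 4.57 CPM against 35.2 to 55.3, a difference of -2.80 (SE 0.28, limma, adjusted p = 0.000369). In neither cluster did the regions overlap, and in each the sign was opposite to that of Chrna7, whose own difference was not called. Lypd6b fell with it in V4 by 2.17 on the log2 scale (limma, adjusted p = 0.0148).

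Of 5 genes for receptor assembly and trafficking 4 passed the filter. Vsnl1, a calcium sensor, was higher in interneurons than in skeletal MNs by 1.64 (SE 0.11, limma, adjusted p = 3.70e-11). The other 3 were not called between these classes, where 10.7% of all genes were. Ric3, a chaperone of alpha7, averaged 60.2 CPM (skeletal MNs), 66.2 (visceral MNs) and 59.8 (interneurons). In lumbar/sacral tissue Vsnl1 was lower in V7 by -1.23 (SE 0.17, limma, adjusted p = 0.0183) and in V4 by -1.40 (SE 0.29, limma, adjusted p = 0.0209). These calls held in 9 of 17 and 12 of 18 other settings, with adjusted p (limma) up to 0.114 and 0.214. Of 7 other nicotinic subunits, those of muscle and hair cells, 5 were in the table and none passed the filter.

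The genes most like a member over the 21 clusters, by Pearson's r of the mean log2(CPM + 5) among 12130 genes, were Hoxb9 (0.97), Kcnmb2 (0.94) and Irx2 (0.94) for Chrna3, and Galr1 (0.86), Rab38 (0.85) and Sema3f (0.84) for Chrna7. The clusters share their libraries, and the genes were picked for this value.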

How the data were processed

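Nuclei of 9 libraries (3 regions from each of 3 pools of 4 mice) were analysed. The authors counted reads over exons and introns (Cell Ranger 3.1.0, mm10) and corrected the counts for depth with SCTransform in Seurat. The deposited values are these corrected counts, whole numbers that are not raw reads and were treated as a score, so no count model was fitted. Corrected totals vary little within a library, and depth per nucleus is therefore partly removed. Class and cluster labels are the authors' own.

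Corrected counts were summed per library and class or cluster (at least 10 nuclei) and scaled to CPM. Sums were compared on log2(CPM + 5) with limma 3.58.1 (trend) in R 4.3.3, for genes at 10 CPM or more in at least 3 sums, with Benjamini-Hochberg adjustment over all genes. Class and skeletal-type fits had a library term and calls needed a log2 difference of 1. Region fits had none. The fits were tested on simulated data, with 200 changed genes per fold taken from genes well above the filter in every sum. Noise was drawn independently for each sum, with no effect of library or pool. The region layout used interneuron sums alone. At adjusted p under 0.05 alone (limma), 99% of 2-fold and 100% of 4-fold changes were recovered between classes, and 71.5% and 100% between regions. The fold asked of class calls was not applied there, and 2-fold changes between classes had a median log2 difference of 0.945. Genes at lower levels, such as Chrnb2, and sums of single clusters were not covered. Doublets were called with scanpy 1.11.5 (164 nuclei, 1.02%) and kept. Barcodes shared between libraries numbered 33. Shares have 95% Wilson intervals, and a count of 0 a limit of 3 counts.

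Libraries of a pool share mice, as the study's methods state, and correlations of their deviations ran from -0.22 to 0.92 over 27 pairs within pools and from -0.82 to 0.61 over 54 pairs between pools. P-values of class and skeletal-type fits measure the spread of differences within libraries. Those of region fits measure the spread between libraries of a region. The 9 libraries came from 3 pools and are not independent samples of mice. The members and lists were chosen with earlier results of these data known. Named were the members, from each list at most 2 called genes a direction, genes that check labels, and the 3 genes most like each member at 10 CPM or more in a cluster. Alternatives covered scaling, filter, pseudocount, thinning, doublets, nuclei per sum, the replicate block and leaving out libraries.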

Additional observations from a re-analysis of the deposited data

Results flagged for a closer look

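In some clusters the regional differences of Chrna7, Chrna3 and Chrnb2 had the same sign in all 3 pools, and these signs were opposite between clusters. Most pairs of a gene and a cluster had mixed signs, and only those with the same sign in all 3 pools are listed. The same sign in 3 pools also arises by chance. Neither this nor the difference between clusters was tested. As log2 difference of lumbar/sacral from rostral tissue, averaged over pools, Chrna7 was lower in I1 (-0.25), I2 (-0.62), I5 (-0.14) and V2 (-1.36), and higher in I6 (0.56) and V4 (1.06). The pools of both sexes, males and females gave -0.57, -2.08 and -1.43 in V2 and 0.66, 0.64 and 1.89 in V4. Chrna3 was higher in I2 (0.45) and lower in I3 (-0.84) and I4 (-0.68). Chrnb2 was higher in I5 (0.68), S1 (0.32) and S3 (0.26) and lower in I3 (-0.17) and V2 (-0.28). Chrnb4 was lower in all 3 pools in I2 (-1.15), I3 (-0.73) and S3 (-0.14), and in no cluster was it higher in all 3. None of these was called within its cluster where it was tested, and I5 had too few nuclei in a library for a test. Groups of 3 libraries were too small to look for a single library far from the rest.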

How the results depend on the processing

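Chrna7 was called between interneurons and skeletal MNs and between visceral MNs and interneurons under all 18 other settings, with the first difference between 2.01 and 2.88. With no filter on low values, and with nuclei thinned to 4600 corrected counts, 2 members were called in each of these comparisons in place of 1, Chrna3 being the other. With thinned nuclei Chrna3 passed the filter through interneuron sums alone, for no MN sum was over 1.06 CPM before thinning. That call is therefore no separate support. The gap between visceral and skeletal MNs in Chrna7 had an adjusted p (limma) under 0.05 in 7 of 18 settings (0.00578 to 0.215), and S1 against S2 in 14 of 18. With the replicate block 0 members were called between regions, as without it, and the adjusted p (limma) was 0.133 for Chrna7 in V2 and 0.111 in V4. Over all settings V2 ran from -1.82 to -0.53, the last with thinned nuclei, and V4 from 0.76 to 1.27. Lypd6 in V2 had an adjusted p (limma) of 0.0926 with no filter, and Lypd6b in V4 one of 0.174 there and of 0.0643 without the lumbar/sacral library of the male pool.

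With thinned nuclei the share with Chrna7 fell to 32.4% in interneurons and 6.89% in skeletal MNs, and that with Chrnb2 to 3.08% in skeletal MNs. Co-detection in interneurons then was 0.0314% for Chrna3 with Chrnb4 and 0.872% for Chrna7 with Chrnb2, and at 2 or more counts it was 0% for both pairs and 0.158% for Chrna3 with Chrna7. Fewer counts a nucleus, or more asked for, lower such shares by construction.

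Signs turned only among differences near 0 that were never called. Chrna7 between lumbar/sacral and rostral skeletal MNs was 0.14 with thinned nuclei, 0.021 without doublet calls and -0.12 to 0.071 leaving out 1 library. In visceral MNs it was -0.12 to 0.20 leaving out 1 library and -0.040 without the male pool's cervical and thoracic libraries, a setting chosen after seeing the data. Cervical against thoracic Chrna7 ran from -0.62 to 0.00059 in visceral MNs leaving out 1 library, and in interneurons it was 0.084 with median-of-ratios scaling and -0.12 to 0.15 leaving out 1 library. Chrnb2 between visceral MNs and interneurons was 0.0020 with a pseudocount of 1, 0.018 with thinned nuclei, 0.0057 without doublet calls, -0.064 to 0.030 leaving out 1 library and 0.037 without the male pool's libraries. Chrnb2 between S1 and S3 was -0.00088 with median-of-ratios scaling, -0.0029 with a pseudocount of 20, -0.0065 without doublet calls and -0.042 to 0.089 leaving out 1 library. The cause was not tested.

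Genes called over all settings ranged from 626 to 1603 between interneurons and skeletal MNs (1203), from 669 to 1768 between visceral and skeletal MNs (1333), from 429 to 1202 between visceral MNs and interneurons (875), from 148 to 429 in V2 (317) and from 128 to 432 in V4 (281). Chrna5, Chrna6 and Chrnb3 were seen in 26, 35 and 1 nuclei, too few for a difference between groups to be read at this depth.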
